A study of Mus musculus with 4 samples.

Results

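The Fc receptor genes of mouse microglia and the gene of their shared signalling chain are described here in 4 RNA-seq libraries. The group was defined by symbol and holds 7 of the 55471 genes in the count table: Fcgr1, Fcgr2b, Fcgr3, Fcgr4, Fcer1g, Fcrls and Fcgrt. The rule uses symbols alone, and each symbol matched a single Ensembl identifier. The libraries were prepared from mouse brain cells selected with magnetic beads for CD11b, an integrin subunit carried by microglia and other myeloid cells. All mice, aged 10 to 13 weeks, were given PLX5622, which inhibits CSF1R, a receptor kinase that microglia need to survive, for 7 days and were then kept for 10 days without it, 17 days in all. The submitters call the cells repopulated microglia. All 4 libraries belong to this 1 group, which allows levels and their variation to be given but no drug effect to be estimated. The labels do not say that the libraries, numbered 1 to 4 as in the labels, came from separate animals, so a p-value below reflects variation among these 4 samples that could be technical.

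Fc receptors bind the constant part of antibodies and let phagocytes respond to particles coated with IgG. In mice, Fcgr1, Fcgr3 and Fcgr4 encode the ligand-binding chains of the activating receptors FcγRI, FcγRIII and FcγRIV. These chains need the Fc receptor gamma chain, encoded by Fcer1g, both to reach the surface and to signal, because the gamma chain carries the tyrosine motif that recruits the kinase Syk. Fcgr2b encodes the inhibitory receptor FcγRIIB, whose own tail recruits the phosphatase SHIP1, the product of Inpp5d. Fcrls encodes a scavenger receptor related to Fc receptors that is widely used as a microglial marker in mice. Fcgrt encodes the heavy chain of the neonatal Fc receptor, which pairs with beta-2 microglobulin and returns IgG and albumin from endosomes to the cell surface.

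The promoters of 4 members are shown. Fcgr4, Fcgrt and Fcrls had the largest coefficients of variation between libraries among the members, and Fcgr1 held a motif match found in no other member. Fcgr3, which also held a motif match, is not shown. Each sequence is the 250 bases before the annotated start, read 5′ to 3′ on the strand of the gene, from RefSeq on GRCm38.p6, with matches to the searched motifs in capitals. The Fcgr4 window is chr1:171018676-171018925 on the plus strand, the Fcgr1 window chr3:96293970-96294219 on the minus strand, the Fcrls window chr3:87263525-87263774 on the minus strand and the Fcgrt window chr7:45103823-45104072 on the minus strand.
Fcgr4: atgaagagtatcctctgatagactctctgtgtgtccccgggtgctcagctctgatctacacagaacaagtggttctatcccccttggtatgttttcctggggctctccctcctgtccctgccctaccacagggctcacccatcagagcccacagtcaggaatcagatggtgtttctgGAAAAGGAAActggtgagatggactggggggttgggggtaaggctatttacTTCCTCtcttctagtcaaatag
Fcgr1: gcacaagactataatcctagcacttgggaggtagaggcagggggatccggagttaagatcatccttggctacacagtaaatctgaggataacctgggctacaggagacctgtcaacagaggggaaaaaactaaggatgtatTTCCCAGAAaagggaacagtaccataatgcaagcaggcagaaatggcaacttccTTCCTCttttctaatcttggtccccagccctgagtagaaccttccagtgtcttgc
Fcrls: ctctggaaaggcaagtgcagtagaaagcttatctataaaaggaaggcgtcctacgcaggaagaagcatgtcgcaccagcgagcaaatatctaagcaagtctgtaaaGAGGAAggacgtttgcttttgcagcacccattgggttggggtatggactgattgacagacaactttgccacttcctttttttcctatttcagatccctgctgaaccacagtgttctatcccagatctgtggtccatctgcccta
Fcgrt: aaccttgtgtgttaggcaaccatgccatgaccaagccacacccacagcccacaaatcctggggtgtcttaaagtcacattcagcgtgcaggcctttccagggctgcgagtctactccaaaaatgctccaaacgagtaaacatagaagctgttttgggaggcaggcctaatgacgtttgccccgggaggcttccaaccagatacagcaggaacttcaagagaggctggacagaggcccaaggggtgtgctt

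The 3 motifs searched on both strands were the core of the interferon-stimulated response element (GAAA, any 2 bases, GAAA), the gamma-activated site bound by STAT dimers (TTCNNNGAA) and the core bound by the myeloid factor PU.1 (GAGGAA, or TTCCTC on the other strand). All 7 members matched a RefSeq promoter. The interferon-stimulated response element core was found in 1 of 7 members, Fcgr4, at 73 to 64 bases before the start, and in 978 of 32851 promoters of the same length, or 2.98%. Counted per gene, as the members are, the share was 3.46%. The gamma-activated site was found in 1 of 7, Fcgr1, at 109 to 101 bases before the start, and in 2306 promoters, or 7.02%, and 8.13% of genes. The PU.1 core was found in 4 of 7 members and in 7639 promoters, or 23.3%, and 25.9% of genes. It lay 22 to 17 bases before the start of Fcgr4, 55 to 50 before that of Fcgr1, 6 to 1 before the first annotated start of Fcgr3 and 144 to 139 before that of Fcrls. The Fcgr2b, Fcer1g and Fcgrt windows held none of these letters. A match describes the letters of the window and is not evidence of binding.

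**Figure D1:**
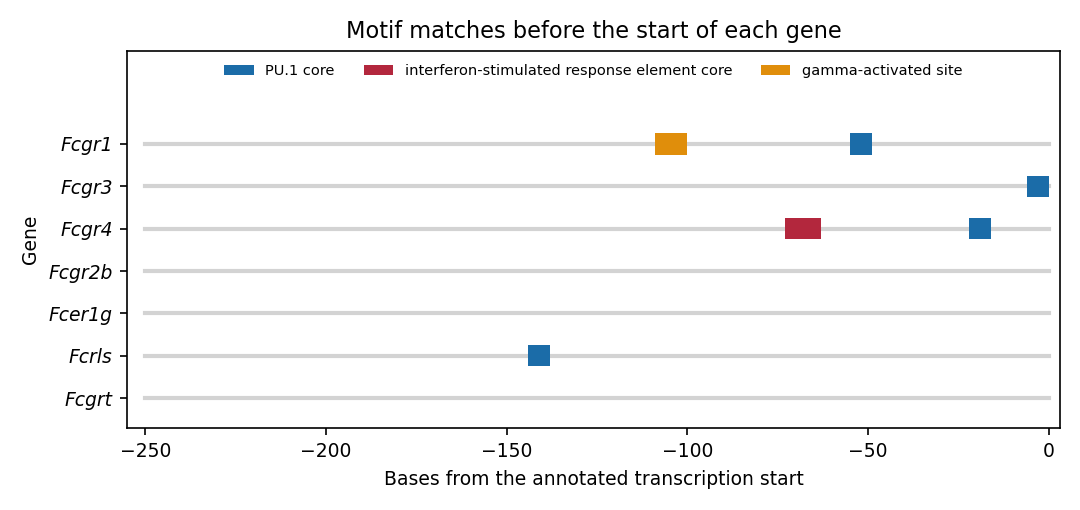
Motif matches in the 250 bases before the annotated start of each member, with distance from the start in bases on the horizontal axis and 1 row per member. Fcgr4 holds the only match to the interferon-stimulated response element core among the members, and Fcgr1 the only gamma-activated site.

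The libraries held 23036202 to 24487418 counts, so a floor of 3 counts stands at 0.123 to 0.130 CPM (counts scaled to a library size of 1000000). All members lay far above that floor and reached 1 CPM in every library, as did 12512 genes in all. The members together took 0.340% to 0.457% of the counts of a library. The 15 homeostatic microglia markers were detected in full, with a list median of 11.48 ± 0.16 on the log2(CPM + 0.5) scale (SD, n = 4), against a median of 8.88 for the members and 4.47 for the 14112 tested genes. Other cells of the brain were also present, and their markers moved between libraries. The summed level of 9 choroid plexus markers was 3357 CPM in library 3, against 16125 to 22497 CPM in the others, and that of 10 endothelial markers was 231 CPM in library 3, against 854 to 999 CPM in the others. In bulk RNA, fewer cells of a type and less RNA per cell cannot be told apart.

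All 3 activating receptor genes were expressed, with Fcgr3 the highest and Fcgr4 the lowest of them in CPM and per length. Fcgr3 (ENSMUSG00000059498, chr1:171051174-171064935, minus strand, GRCm38), the gene of the low-affinity activating receptor, had 875, 871, 1165 and 905 CPM in libraries 1 to 4. Fcgr1 (ENSMUSG00000015947, chr3:96282909-96293969, minus strand), the gene of the high-affinity receptor, had 443, 438, 584 and 428 CPM. In both genes library 3 stood above the other libraries, which lay close together. The mean was 954 ± 142 CPM for Fcgr3 and 473 ± 74.0 CPM for Fcgr1 (SD, n = 4). Neither spread passed the test between libraries, with an adjusted p of 1.00 for each in edgeR's negative binomial goodness of fit.

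Fcgr4 (ENSMUSG00000059089, chr1:171018920-171029761, plus strand) encodes the activating receptor that in mice is found on monocytes, macrophages and neutrophils. It had 581, 730, 1491 and 986 counts, or 23.7, 31.5, 65.6 and 39.1 CPM, in libraries 1 to 4. The values were spread out rather than grouped, and the highest, library 3, was 2.77 times the lowest, library 1. The mean was 40.0 ± 18.2 CPM (SD, n = 4), with a coefficient of variation of 45.5%. That coefficient exceeded the value of 94.9% of the 4641 genes within 2-fold of its level, whose median was 12.0%. The unadjusted p of the edgeR goodness of fit was 0.00557 and the adjusted p 0.121, so Fcgr4 did not pass the threshold of 0.05. Its library 3 value was also the highest with total counts and with scaling to the homeostatic list, at 2.66 and 3.13 times library 1.

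Markers of the interferon response and of other myeloid cells were set beside Fcgr4. The order of libraries from low to high was 1, 2, 4, 3 for Fcgr4, for 14 of 18 genes of the type I interferon list and for 7.73% of tested genes. The other 6 members had other orders in these CPM. Scaled to the homeostatic list, Fcgr1, Fcgr2b and Fcgr3 had the order 1, 2, 4, 3 as well. The share of tested genes with that order under that scaling is not given here. The summed level of the interferon list was 409, 669, 1349 and 955 CPM in libraries 1 to 4, and its median member was 3.38 times as high in library 3 as in library 1, where the median tested gene stood at 0.952. The part of the interferon response in the Fcgr4 values was not tested. The 8 neutrophil markers summed to 83.6, 84.2, 35.8 and 19.0 CPM in libraries 1 to 4, so libraries 1 and 2 were higher. All 8 were lowest in library 4, and 5 of 8 were detected. The 7 monocyte markers summed to 53.3 to 63.5 CPM, with 4 of 7 detected (7 at a limit of 0.5 CPM and 2 at 5 CPM), and went both ways: Ccr2 was highest in library 1 at 26.9 CPM and Itga4 in library 3 at 27.0 CPM.

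The gamma chain gene Fcer1g (ENSMUSG00000058715, chr1:171229572-171234365, minus strand) had 536, 419, 576 and 430 CPM in libraries 1 to 4. Libraries 1 and 3 were high and libraries 2 and 4 low. The mean was 490 ± 77.7 CPM (SD, n = 4), and the spread did not pass the edgeR goodness of fit, with an adjusted p of 1.00. The high-affinity IgE receptor, the other classical user of the gamma chain, was close to absent: its alpha chain gene Fcer1a had 0, 2, 1 and 2 counts in libraries 1 to 4, values within the floor of 3 counts.

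Fcgr2b (ENSMUSG00000026656, chr1:170958617-170976547, minus strand), the inhibitory receptor gene, had 389, 359, 479 and 390 CPM in libraries 1 to 4. Library 3 was again the highest, and the other libraries lay within 359 to 390 CPM. The mean was 404 ± 52.0 CPM (SD, n = 4), and the coefficient of variation of 12.9% was the lowest of the 7 members. The adjusted p of the edgeR goodness of fit was 1.00. An annotated antisense gene, Gm38204, covers 2.68% of the Fcgr2b exons and had 0 counts in every library.

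Fcgr2b and Fcgr3 are close copies over their ligand-binding part, and reads from the shared stretch can belong to either. Their coding sequences share an identical run of 129 bases on chromosome 1, from position 278 to 406 in an annotated Fcgr2b coding sequence and from 263 to 391 in an annotated Fcgr3 coding sequence (GENCODE M21), counted from the first base of the start codon. It is shown because it is longer than the 50-base windows used to judge which exon sequence belongs to a gene alone.
Shared run: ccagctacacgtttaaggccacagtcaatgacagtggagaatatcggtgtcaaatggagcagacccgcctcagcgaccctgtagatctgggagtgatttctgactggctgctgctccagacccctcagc
Of the 50-base windows of their exons, 93.1% were unique to Fcgr2b and 90.4% unique to Fcgr3. Of 5685 Fcgr2b windows, 5290 were unique and 166 were shared with Fcgr3, so the rest were shared with other genes. The treatment of reads that fit more than 1 gene is not known here, so the levels of both Fcgr2b and Fcgr3 are uncertain to the extent of their windows that are not unique.

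Fcrls (ENSMUSG00000015852, chr3:87250758-87263738, minus strand) had the highest CPM of the members, with 2106, 1206, 1238 and 1027 CPM in libraries 1 to 4. Library 1 stood alone at 1.82 times the mean of the others, and the other libraries lay together at 1157 ± 114 CPM (SD, n = 3). The mean over all libraries was 1394 ± 484 CPM (SD, n = 4). The unadjusted p of the edgeR goodness of fit was 0.0223 and the adjusted p 0.310. Without library 1 the adjusted p was 1.00.

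Fcgrt (ENSMUSG00000003420, chr7:45092990-45103851, minus strand) had 182, 89.6, 79.9 and 89.1 CPM in libraries 1 to 4, from 4450, 2075, 1816 and 2246 counts. Library 1 was 2.11 times the mean of the others, which lay at 86.2 ± 5.45 CPM (SD, n = 3). The mean over all libraries was 110.1 ± 47.9 CPM (SD, n = 4), and the coefficient of variation of 43.5% exceeded that of 97.3% of the 3184 genes within 2-fold of its level. Its adjusted p in the edgeR goodness of fit, 0.0845, was the smallest of the members and did not pass 0.05; the unadjusted p was 0.00335. Without library 1 the adjusted p was 1.00. The partner chain gene B2m had 2766, 2667, 4393 and 3188 CPM in libraries 1 to 4, so its highest library was 3, where Fcgrt was lowest.

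Library 1 also held the most of the border macrophage markers, genes of the macrophages along brain vessels and meninges. All 9 were detected and all 9 were highest in library 1, with a summed level of 1625 CPM in library 1, against 1155, 1169 and 990 CPM in libraries 2 to 4. Of these, 6 of 9 passed the spread test, where 3.28% of all tested genes did, and 8 of 9 stood at 1.5-fold or more above the other libraries in library 1. Fcrls and Fcgrt were the 2 of 7 members at or past that fold, and 9.47% of tested genes were. Markers of other cells also peaked in library 1: 6 of 6 erythroid genes, 5 of 6 oligodendrocyte genes, 6 of 8 T and NK cell genes and 5 of 6 B cell genes were highest there, against 34.2% of tested genes. The summed erythroid level was 365, 175, 32.4 and 66.0 CPM in libraries 1 to 4, and the summed oligodendrocyte level 852, 466, 379 and 587 CPM. Mrc1, the mannose receptor gene of these macrophages, had 291, 148, 141 and 121 CPM in libraries 1 to 4. The 10 endothelial markers summed to 974, 999, 231 and 854 CPM in libraries 1 to 4, and 4 of 10 were highest in library 1. The 8 pericyte and smooth muscle markers summed to 655, 642, 98.5 and 430 CPM. Both sums were lowest in library 3. Fcgrt was lowest there as well, but its 79.9 CPM lay close to its 89.6 and 89.1 CPM in libraries 2 and 4. The part of border macrophages or of these other cells in the Fcrls and Fcgrt values was not tested. Scaled to the homeostatic list, library 1 stood at 1.51 times the others for Fcrls and 1.73 times for Fcgrt.

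**Figure D2:**
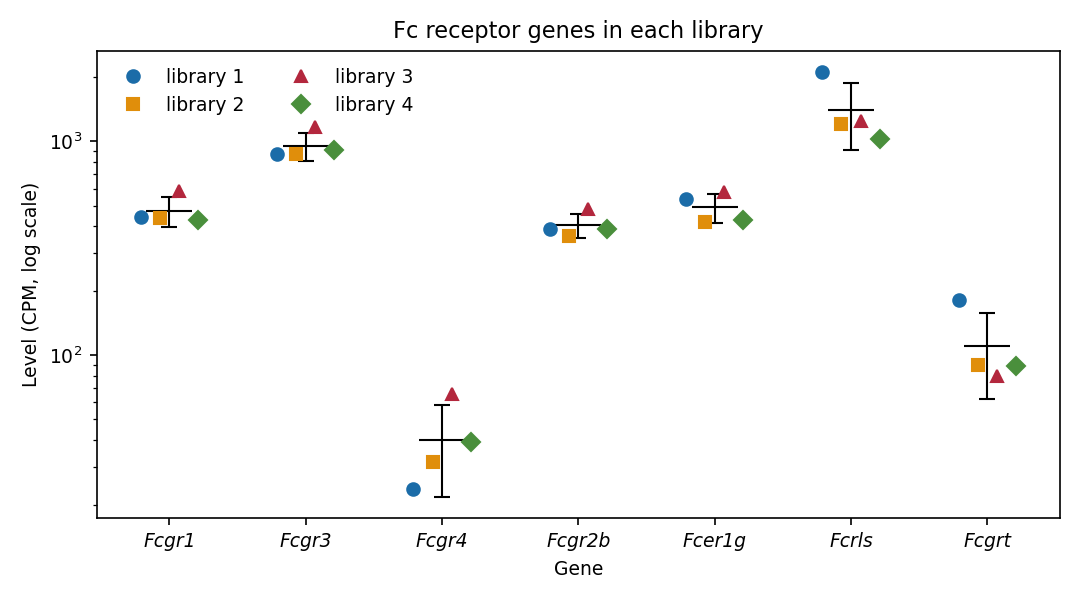
Level of each member in CPM on a log axis, with 1 point per library and the mean with its SD over the 4 libraries. Fcrls and Fcgrt stand high in library 1 (2106 and 182 CPM), and Fcgr4 spreads between 23.7 and 65.6 CPM.

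Across the members, 0 of 7 passed the spread test at an adjusted p of 0.05 in the edgeR goodness of fit, where 463 of 14112 tested genes, or 3.28%, did. By the quasi-likelihood variance in edgeR 0 of 7 members and 0 of all tested genes passed, and by the dispersion outliers of DESeq2 0 of 7 members and 0.0354% of tested genes did. With DESeq2 size factors, total counts or no low-count filter, 0 of 7 passed the goodness of fit, against 3.27%, 3.31% and 1.5% of genes. Leaving out libraries 1, 2, 3 and 4 in turn, 0 of 7 passed, against 2.98%, 1.94%, 0.716% and 1.82%. At an unadjusted 0.05, 3 of 7 members passed the goodness of fit, against 9.57% of tested genes, and 2 of 7 passed the quasi-likelihood variance, against 4.66%. The median coefficient of variation was 15.8% for the members and 16.02% for the tested genes, which include many genes of lower level. Among genes within 2-fold of a member's level the median was 11.5% to 13.7%. Each member exceeded most genes of its level, from 52.2% of them for Fcgr2b to 97.3% for Fcgrt, with 94.5% for Fcrls. Library 3 was highest for 5 of 7 members, Fcgr1, Fcgr2b, Fcgr3, Fcgr4 and Fcer1g, and for 28.3% of tested genes. Library 1 was highest for the remaining 2, and for 34.2% of tested genes, and it was lowest for 1 member, Fcgr4, and for 31% of tested genes. The highest library of each member did not change with total counts or with scaling to the homeostatic list. Among the 15 homeostatic microglia markers, 8 were highest in library 3 and 7 in library 1 by TMM, so this split was not particular to the members.

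**Figure D3:**
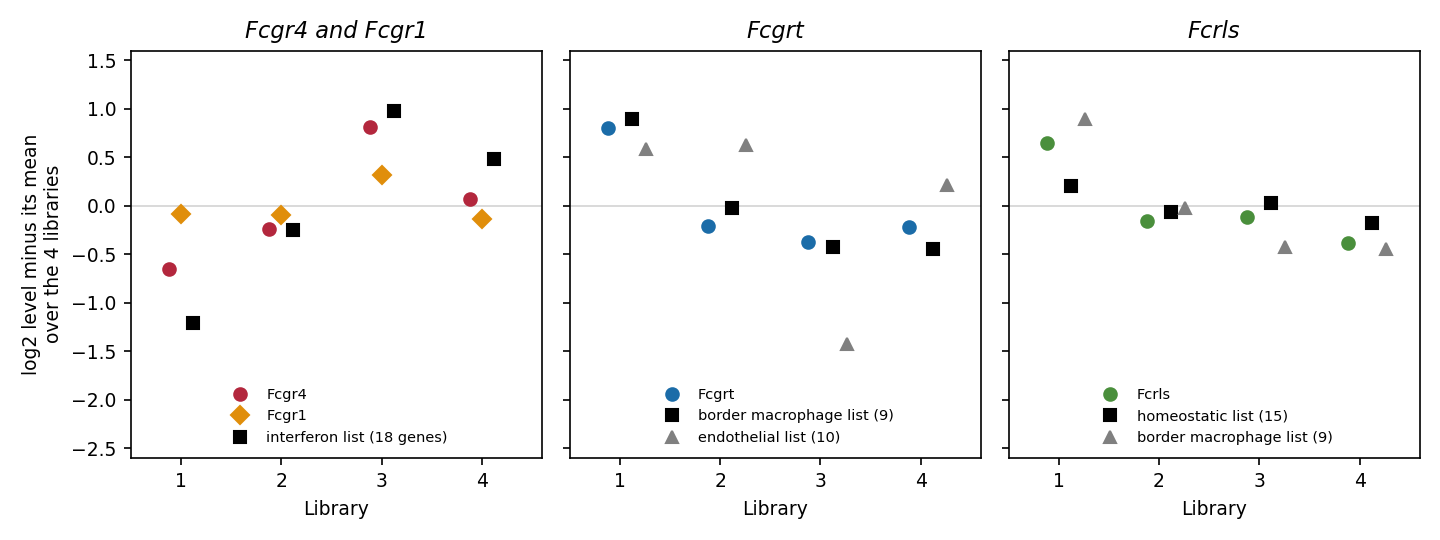
Log2 CPM of Fcgr4, Fcgr1, Fcgrt and Fcrls in libraries 1 to 4, each minus its own mean over the 4 libraries. The medians of the interferon, border macrophage, endothelial and homeostatic lists, on the log2(CPM + 0.5) scale, are drawn the same way. Each list stands in the panels of the members it is set beside. Fcgr4 and the interferon list share the library order 1, 2, 4, 3 from low to high, while Fcgrt, Fcrls and the border macrophage list are highest in library 1, and the endothelial list is lowest in library 3.

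Levels of different genes were compared per kilobase of exon, as CPM per kb. Fcrls stood at 597 ± 207, Fcer1g at 561 ± 88.8, Fcgr3 at 549 ± 81.7, Fcgr1 at 183 ± 28.6, Fcgr2b at 69.9 ± 8.98, Fcgrt at 52.4 ± 22.8 and Fcgr4 at 31.8 ± 14.5 CPM per kb (SD, n = 4). Fcrls, Fcer1g and Fcgr3 could not be ordered. Fcrls exceeded Fcer1g in 2 of 4 libraries, by a mean log2 difference of 0.05 ± 0.38, and Fcer1g exceeded Fcgr3 in 1 of 4, by 0.03 ± 0.17. The next steps held in every library: Fcgr3 was at 3.01 times the level of Fcgr1, and Fcgr1 at 2.61 times the level of Fcgr2b, and each was higher in 4 of 4 libraries. In log2 these differences were 1.59 ± 0.05 and 1.38 ± 0.08, and with the longest transcript of each gene as its length Fcgr1 over Fcgr2b was 0.68. Each had p = 0.125 in the exact two-sided sign-flip permutation test, the smallest value that 4 libraries allow, and 0.375 after Benjamini-Hochberg adjustment over the 6 neighbour pairs. Fcgr2b exceeded Fcgrt in 3 of 4 libraries, all but library 1, with a log2 difference of 0.49 ± 0.62. With the longest transcripts it was 0.95, higher in 4 of 4 libraries (exact sign-flip permutation p = 0.125). Fcgrt exceeded Fcgr4 in 3 of 4, all but library 3, with a log2 difference of 0.74 ± 1.10.

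**Figure D4:**
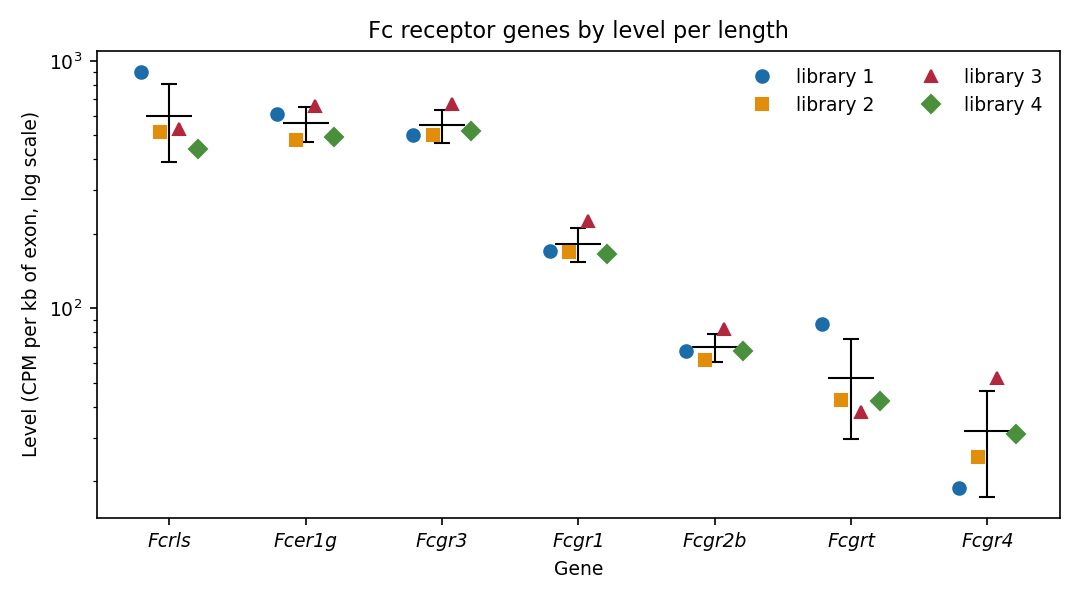
Level of each member per kilobase of exon (CPM per kb, log axis), in order of the mean, with 1 point per library and bars for the mean and SD. Fcrls, Fcer1g and Fcgr3 overlap at the top, and Fcgr1 and Fcgr2b each sit below the gene before them in every library.

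The balance of activating to inhibitory receptor messages varied little between libraries. The summed level per kb of Fcgr1, Fcgr3 and Fcgr4 was 10.3, 11.2, 11.5 and 10.6 times that of Fcgr2b in libraries 1 to 4. The 4 values lay close together, with a mean log2 ratio of 3.45 ± 0.07 (SD, n = 4). The exact sign-flip permutation p of 0.125 sets the mean log2 ratio against equal levels and does not measure the closeness of the values. Whether other gene pairs vary as little was not tested. The size of the ratio rests on the length assigned to Fcgr2b, which has 7 annotated transcripts: it averaged 10.9-fold with all exons and 8.06-fold with the longest transcript of each gene. Fcgr3 alone stood at 7.85 times the level of Fcgr2b per kb, and Fcgr1 with Fcgr4 at 3.05 times. With the longest transcripts these were 6.19 and 1.87 times.

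Fcgr3 made up most of the activating messages. Its share of the summed level per kb was 72.6%, 72.1%, 70.7% and 72.6% in libraries 1 to 4, and that of Fcgr1 was 24.7%, 24.3%, 23.8% and 23.0%. Both shares moved little between libraries. The share of Fcgr4 was 2.72%, 3.61%, 5.51% and 4.34%, smallest in library 1 and largest in library 3. Fcgr3 stood at 26.7, 19.99, 12.8 and 16.7 times the level of Fcgr4 per kb in libraries 1 to 4.

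The gamma chain message was somewhat below the sum of the chains it serves. Fcer1g stood at 0.883, 0.689, 0.694 and 0.685 times the summed level per kb of Fcgr1, Fcgr3 and Fcgr4 in libraries 1 to 4. Library 1 was apart and the other libraries were nearly equal. The mean log2 ratio was -0.45 ± 0.18 (SD, n = 4; exact sign-flip permutation p = 0.125) and -0.54 ± 0.0093 without library 1 (SD, n = 3). Tyrobp, the gene of the related adapter DAP12, stood at 2.14, 2.16, 2.35 and 2.23 times the level of Fcer1g per kb in libraries 1 to 4, and was higher in 4 of 4 libraries.

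**Figure D5:**
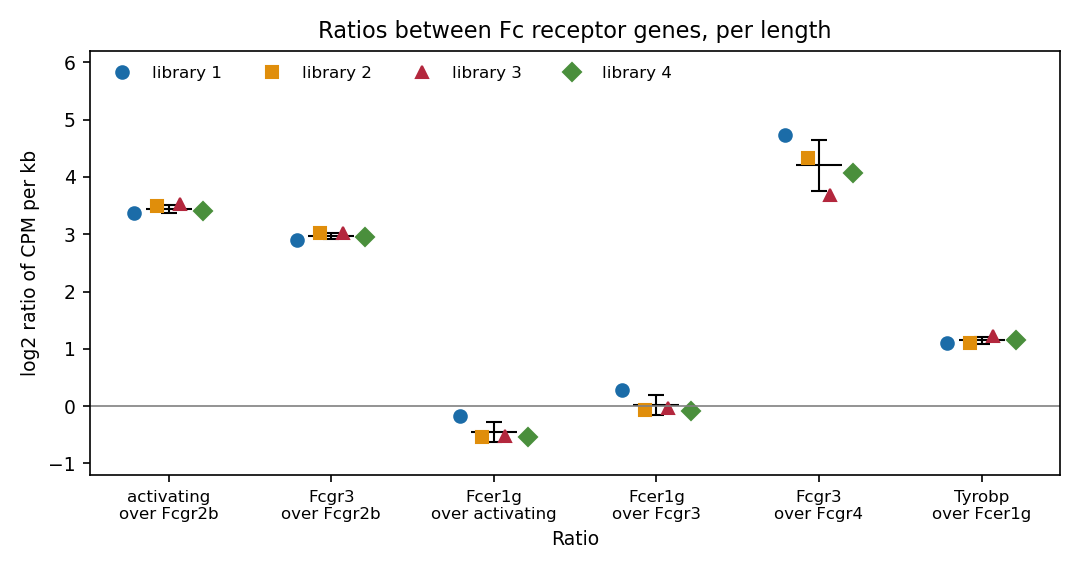
Log2 ratios of levels per kb within each library, with 1 point per library and the mean with its SD. The activating to inhibitory log2 ratio has a mean of 3.45 ± 0.07 (SD), while Fcer1g over the activating receptors is highest in library 1.

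The signalling genes behind both kinds of receptor were present nearly in full. Of 20 genes of the activating path, 19 were detected, with a median of 7.41 on the log2(CPM + 0.5) scale. Prkcd, a protein kinase C gene, averaged 648 ± 101 CPM, Lyn, the Src family kinase that phosphorylates the gamma chain, 623 ± 67.7 CPM, and Vav1, a guanine nucleotide exchange factor gene, 435 ± 42.9 CPM (SD, n = 4). Of the 50-base exon windows of Lyn, 81.7% were unique to it, so its level is less certain. Syk averaged 356 ± 53.0 CPM. The lowest detected were Vav3 at 2.76 ± 0.4219 CPM and Fgr at 9.30 ± 1.65 CPM. Lat, a T cell and mast cell adapter named here after its value was seen, was the undetected member at 0.931 ± 0.263 CPM. None of the 20 passed the spread test by the edgeR goodness of fit, against 3.28% of tested genes, and 0 did so at an unadjusted 0.05, against 9.57%. Library 3 was highest for 15 of 20, against 28.3%.

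All 8 genes of the inhibitory path were detected, with a median of 7.49 on the same log2 scale. Inpp5d averaged 1095 ± 138 CPM, Ptpn6, the gene of the phosphatase SHP-1, 334 ± 32.1 CPM, and Cbl, a ubiquitin ligase gene, 296 ± 63.6 CPM (SD, n = 4). The lowest were Dok2 at 4.34 ± 0.981 CPM and Cblb at 21.03 ± 1.89 CPM. All 5 genes of the phagocyte oxidase, which makes superoxide after Fc receptor engagement, were detected, with a median of 7.26 on that scale. Ncf1 averaged 674 ± 59.3 CPM, Cyba 279 ± 45.3 CPM and Ncf4 69.5 ± 9.33 CPM (SD, n = 4). Cybb, the gene of the catalytic subunit, had 41.3, 51.0, 93.2 and 51.7 CPM in libraries 1 to 4. Library 3 was the highest, and the adjusted p of the edgeR goodness of fit was 0.275. In both lists 0 genes passed that test, and at an unadjusted 0.05 the count was 0 of 8 and 1 of 5, where 3.28% and 9.57% of tested genes passed.

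Outside the 7 members, few Fc receptor genes were expressed. The median of 12 others was -0.68 on the log2(CPM + 0.5) scale, against 4.47 for the tested genes, and 2 of 12 were detected: Trim21, a cytosolic receptor for antibody, at 39.9 ± 4.46 CPM, and Fcrl1, a receptor known from B cells, at 31.9 ± 7.21 CPM (SD, n = 4). The genes for the receptors of polymeric immunoglobulin (Pigr) and of IgA and IgM (Fcamr) and Fcrl6, named after their values were seen, had 0 counts in every library. Of 9 receptor genes whose products also use the gamma chain, 2 were detected (5 at a limit of 0.5 CPM and 1 at 5 CPM), Lilra5 at 24.4 ± 6.54 CPM and the lectin gene Clec4n at 4.44 ± 3.23 CPM. Of 6 other adapter genes, 3 were detected: Tyrobp at 831 ± 155 CPM, Cd79b at 12.6 ± 4.85 CPM and Hcst at 6.61 ± 1.37 CPM. None of these 7 detected genes passed the edgeR goodness of fit, which called 3.28% of tested genes, and at an unadjusted 0.05 the count was 1, Clec4n.

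Immunoglobulin messages were nearly absent apart from Ighm. Of 12 immunoglobulin genes, 3 were detected: Ighm, the constant region gene of IgM, at 293, 249, 328 and 254 CPM in libraries 1 to 4, Ighd at 7.48 ± 0.240 CPM and Igkc, the kappa light chain gene, at 2.14 ± 1.24 CPM (SD, n = 4). The IgG heavy chain genes, named after their values were seen, had few counts. Ighg1 had 0, 0, 1 and 0 counts, Ighg2c 1, 0, 1 and 0 counts, Ighg3 0, 0, 0 and 1 counts and Ighg2b 1, 3, 14 and 13 counts. Of the 6 B cell markers 2 were detected, Cd79b and Ebf1, and their summed level was 39.4, 28.9, 13.7 and 24.3 CPM in libraries 1 to 4.

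The genes most like each member over the 4 libraries were found by the root mean square difference of centred log2 values, among 9306 genes of at least 10 CPM. Fcgr4 was nearest to Ifi207, an interferon-inducible p200 family gene, and Comp, at differences of 0.0699 and 0.0739, and 6 genes lay within 0.1 of it. Fcgrt was nearest to Upk1b and Cmtm8, at 0.0326 and 0.0437, with 19 genes within 0.1. Fcrls was nearest to Malsu1 and Ranbp1, with 82 within 0.1. The other members had many neighbours: 400 for Fcgr1 (nearest Slc13a3 and Ctsz), 643 for Fcgr2b (Lrrc61 and Fth1), 525 for Fcgr3 (Dcaf4 and Mob1a) and 388 for Fcer1g (Tmem219 and Ly86). With 4 libraries such likeness is a description.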

How the data were processed

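Per the labels' protocols, each of the 4 libraries used 300 ng of RNA from CD11b-positive brain cells, poly(A) enrichment and a directional kit. The authors deposited raw counts per Ensembl gene. The submitters' processing notes name featureCounts 1.6.5, the aligner STAR 2.7.2b, bcl2fastq 2.20.0.422 and the GRCm38 build. Not given in the sources used here are how multimapping reads were treated, which strand was counted and which annotation release was used.

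Symbols, coordinates and lengths came from GENCODE M21 (55230 of 55471 identifiers matched). The other 241 identifiers held at most 0.00526% of a library. CPM used TMM effective sizes in edgeR 4.0.16 (R 4.3.3). Spread between libraries was tested by the residual deviance of an intercept-only negative binomial fit with trended dispersion (chi-square, 3 degrees of freedom) over 14112 genes kept by filterByExpr, with Benjamini-Hochberg adjustment. No quasi-likelihood test of a coefficient exists for 1 group. Quasi-likelihood variances, DESeq2 1.42.0, other scalings, filters, lengths and detection limits (0.5 and 5 CPM), and leaving out each library were alternatives. The steps were tested on simulated data. Levels between genes were divided by the union of exons. Detection means 1 CPM in every library. Ratios used exact two-sided sign-flip permutation tests of the mean log2 ratio against equal levels, over 16 flips, whose smallest p is 0.125. A floor of 3 counts reflects counting error alone, because reads lacking molecular identifiers need not be separate molecules.

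All members were named, with the highest 3 and lowest 2 detected genes of each Fc pathway list, Ighm, Tyrobp, B2m, Syk and Inpp5d, at most 3 highest genes of marker lists, and the 2 nearest genes per member; a gene that this rule names is not reported here. Members and lists were chosen with earlier results of these data known. Libraries differed by more than sampling noise, so all 4 were kept as separate samples.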

Additional observations from a re-analysis of the deposited data

Results flagged for a closer look

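Of 14 values screened, 7 levels and 7 ratios, the 5 below stood farther from the other 3 libraries than Dixon's 95% critical value allows, as the gap to the nearest library over the range. Chance marks about 1 in 20 such groups, and the values are not independent: both flagged ratios share the Fcer1g level of library 1. Library 3 was apart for Fcgr1, at 583.5 CPM (gap over range 0.904), and for Fcgr3, at 1165 CPM (0.887). Library 1 was apart for Fcgrt, at 181.5 CPM (0.905). Library 1 was also apart for the log2 level per kb of Fcer1g over the summed activating receptors, at -0.18 (0.949), and over Fcgr3 alone, at 0.28 (0.846).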

How the results depend on the processing

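The count of 0 members past the spread test was the same under every alternative run. Over all genes the count was 463 in the edgeR goodness of fit, 0 by the quasi-likelihood variance in edgeR (658 genes at an unadjusted 0.05), 5 by DESeq2 dispersion outliers, and 106 to 425 when a library was left out, lowest without library 3. The smallest adjusted p of a member was 0.0642, for Fcgrt without library 3 in the goodness of fit. Over all alternatives run, Fcgrt ranged from 0.0642 to 1.00 and Fcgr4 from 0.103 to 1.00 in adjusted p of the goodness of fit. Without library 1 the Fcgrt mean was 86.2 CPM and the Fcrls mean 1157 CPM. The order at the top changed: Fcrls over Fcer1g was -0.27 in log2 with the longest transcript and -0.12 to 0.17 when a library was left out, negative without library 1, and Fcer1g over Fcgr3 was -0.11 with unique windows and -0.059 to 0.063, negative without library 1. The activating to inhibitory log2 ratio ranged from 3.42 to 3.47 when a library was left out. Scaling to the homeostatic list made library 1 the lowest for 4 members, against 1 by TMM; the cause was not tested. No paired analysis was possible because all libraries belong to 1 group. With 4 libraries, no sign-flip p can reach 0.05.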

Other observations

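Clec4n, the gene of the lectin Dectin-2 that signals through the gamma chain, had 9.14, 3.93, 2.64 and 2.06 CPM in libraries 1 to 4. Library 1 was 3.17 times the mean of the others, with an adjusted p of 0.401 in the edgeR goodness of fit. Fcrl1 was also highest in library 1, at 42.2 CPM, against 29.6, 30.2 and 25.4 CPM in libraries 2 to 4.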
